A study of Mus musculus with 4 samples.

Results

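The genes described here were the tripartite motif (TRIM) genes, taken as every gene symbol made of Trim, a number and at most 1 letter. They numbered 66 of the 24346 gene symbols listed in each library. Of the 66 genes, 33 reached an FPKM of 1 in 2 or more libraries and were tested, 23 were above 0 in some library but stayed below this limit, and 10 were listed at 0 in all 4 libraries. A gene that reached the limit only through the group in which it was high had to differ between groups, so counts over the tested genes do not speak for all 66.

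TRIM proteins are built from a RING finger, 1 or more B-boxes and a coiled coil, and most of them are ubiquitin ligases. The domain at the C terminus sorts them into classes. Most vertebrate TRIM proteins end in a PRY-SPRY domain, and many of these act in innate immunity. Another class ends in a PHD finger and a bromodomain and regulates transcription on chromatin, and a further class ends in NHL repeats. A part of the family is induced by interferon, and rodents carry their own expanded set of interferon-inducible members.

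The cells were hair follicle stem cells (HFSCs), sorted from the dorsal skin of C3H/HeN mice by the surface proteins CD49f and CD34 and passaged in the serum-free medium M-CnT. RNA was sequenced from HFSCs after 10 passages (10p-HFSCs, 2 libraries) and after 48 passages (48p-HFSCs, 2 libraries), with no other treatment in either group. Neither the labels nor the methods say whether the libraries of a group came from separate cultures or animals, so p-values measure the spread between these libraries, which may be technical. FPKM scales the fragments of a gene to its exon length and to the size of the library, so that levels can be set side by side between genes.

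The keratinocyte genes Krt5 and Krt14 lay between 1217 and 8156 FPKM in every library, while Cd34 mRNA was at most 0.234 and Lhx2 at most 0.024, so that these 2 of the 12 stem cell and keratinocyte markers were near 0 in both groups, as was Tcf7l1. Other markers of this list were well expressed. Sox9 was called lower, at 45.6 and 44.2 in 10p-HFSCs, against 20.2 and 8.31 in 48p-HFSCs. Itga6, which encodes CD49f, was called higher, at 31.4 and 20.8, against 100.998 and 79.0, as was Itgb4. Krt15 was at 136 and 82.6, against 425 and 18.8, and was not called. Of 10 fibroblast markers, Vim and Col1a2 were called lower in 48p-HFSCs, the summed level of all 10 was 361 and 392 in 10p-HFSCs, against 3.81 and 5.74 in 48p-HFSCs, and Dcn, Lum and Thy1 were listed at 0 throughout. Of 7 leukocyte markers, Cd68 was called higher, at 7.30 and 6.81 in 10p-HFSCs, against 53.2 and 78.7 in 48p-HFSCs. The summed level of the 7 was 8.599 and 8.022, against 56.7 and 80.4, and Ptprc was at most 0.071, and Cd3e and Tyrobp were listed at 0. Summed FPKM ranged from 581516 to 719012 in 3 libraries and was 1414953 in replicate 2 of 48p-HFSCs, which also had the lowest relative depth, 46.7% of that of replicate 1 of 10p-HFSCs. In a bulk sample, fewer cells of a type and less RNA per cell cannot be told apart.

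The cluster of TRIM genes on chromosome 7 held the 2 members called higher after 48 passages, Trim30a and Trim30d. The stretches around their start sites are shown because these neighbouring genes moved together, beside those of Trim12c and Trim34a from the same cluster and of Trim21, an interferon-inducible gene elsewhere on chromosome 7, and of Trim25, an interferon-inducible gene on chromosome 11 with no match in this window. Each runs 5′ to 3′ on the strand of the gene from 100 bases before to 30 bases from the transcription start of RefSeq (GRCm38.p6, the assembly of mm10), and capitals mark matches to GAAA, 2 further bases and GAAA, or to the reverse complement (TTTC, 2 further bases and TTTC), the core letters of the interferon-stimulated response element.
Trim30a, chr7:104465164-104465293, minus strand: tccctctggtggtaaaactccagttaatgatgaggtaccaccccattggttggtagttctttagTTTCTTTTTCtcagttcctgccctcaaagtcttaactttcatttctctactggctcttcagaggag
Trim30d, chr7:104507820-104507949, minus strand: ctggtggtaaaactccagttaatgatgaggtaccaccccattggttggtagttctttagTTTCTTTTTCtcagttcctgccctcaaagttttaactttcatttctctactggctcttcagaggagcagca
Trim12c, chr7:104353320-104353449, minus strand: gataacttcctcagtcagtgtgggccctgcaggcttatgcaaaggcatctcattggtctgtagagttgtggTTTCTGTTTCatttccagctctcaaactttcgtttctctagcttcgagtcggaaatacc
Trim34a, chr7:104244357-104244486, plus strand: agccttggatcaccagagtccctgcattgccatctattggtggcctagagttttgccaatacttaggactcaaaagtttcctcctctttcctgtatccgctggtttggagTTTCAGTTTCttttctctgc
Trim21, chr7:102565453-102565582, minus strand: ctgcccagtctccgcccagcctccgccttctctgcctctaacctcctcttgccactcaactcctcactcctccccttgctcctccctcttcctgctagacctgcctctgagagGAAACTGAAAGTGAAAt
Trim25, chr11:88999303-88999432, plus strand: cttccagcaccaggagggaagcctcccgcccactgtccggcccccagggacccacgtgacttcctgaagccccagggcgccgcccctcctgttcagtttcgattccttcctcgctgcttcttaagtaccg

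With a shift of 5 bases, the stretches of Trim30a and Trim30d were identical at 124 of 125 aligned bases. In Trim21 the capitals hold 2 overlapping matches. A RefSeq promoter of 300 bases, from 250 before to 50 from the start, was on hand for 51 of the 66 genes, and 8 of the 51 (15.7%) held a match, against 3.99% of all 27025 genes with such a promoter. By position, a match was found in 5 of the 8 members of the chromosome 7 cluster and in 3 of the other 43 members, which were Trim2, Trim21 and Trim26. The letters TTC, 3 further bases and GAA, the core of the gamma-activated site, which reads the same on both strands, were found in 5 of the 51 genes (9.8%), against 9.55% of all genes. Such matches describe letters and not bound sites, and both patterns were chosen after the expression values had been seen.

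Few members of the family were called. Of the 33 TRIM genes tested, 2 were called higher in 48p-HFSCs, where 10.8% of all 11018 genes were called higher, and 1 was called lower, where 9.15% of all genes were called lower (limma on log2(FPKM + 1), Benjamini-Hochberg adjusted p-value under 0.05 and a difference of at least 1 on this scale). A missing call does not show that a gene was unaltered. In either direction, 3 of the 33 (9.09%) were called, below the 19.9% of all genes. Before adjustment, 6 of the 33 (18.2%) had a p-value under 0.05, against 37.4% of all genes. The median log2 difference was -0.07 over the tested TRIM genes and -0.03 over all genes, and the median size of the difference, regardless of direction, was 0.53 and 0.61. Each 48p-HFSC library exceeded each 10p-HFSC library in 13 of the 33 genes (39.4%, against 31.7% of all genes), and both lay below in 10 (30.3%, against 34.3%), while the groups overlapped in 10. These shares lie near those of all genes. Rescaling each library to the same summed FPKM moved the median difference of all genes by -0.52, so small differences of either sign depend on the scaling. The TRIM genes called changed when a 48p-HFSC library was left out, as did the number of all genes called.

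**Figure D1:**
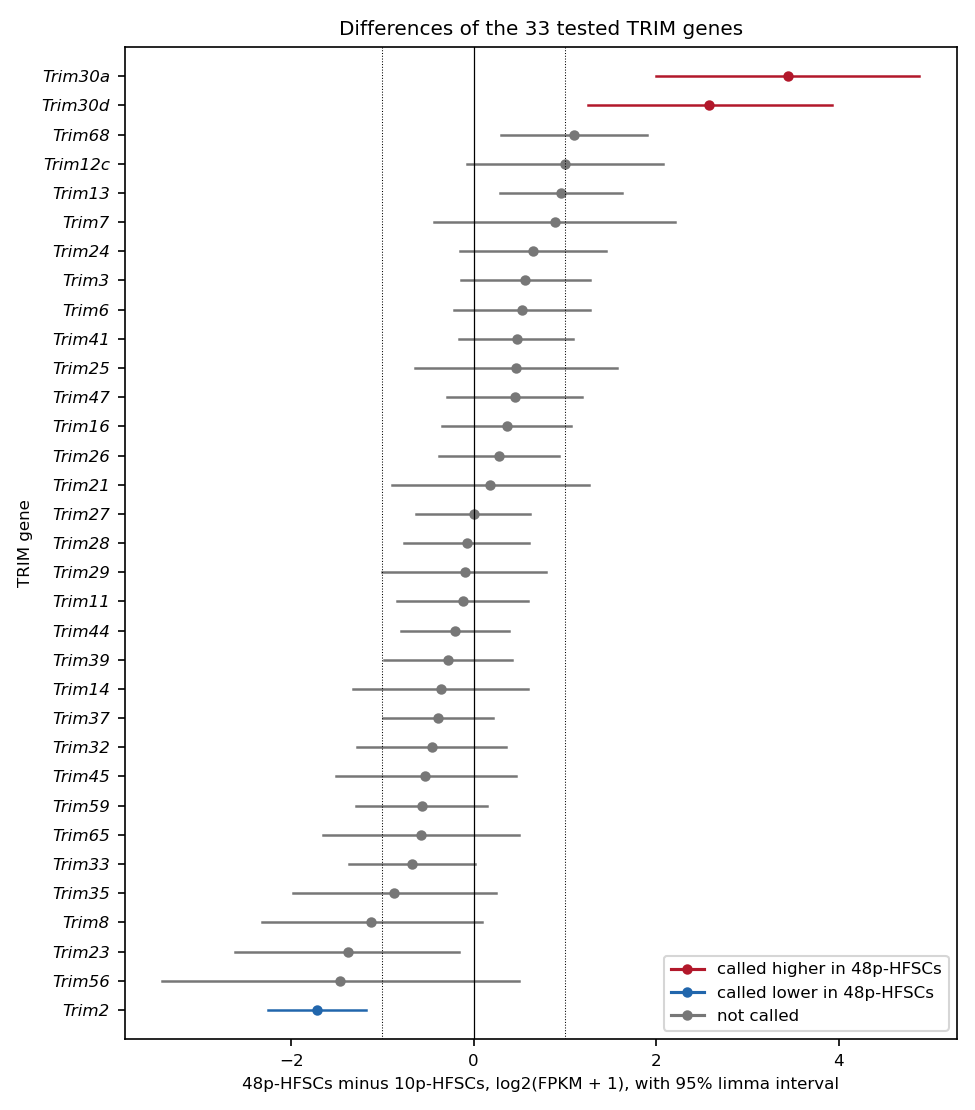
Difference of each of the 33 tested TRIM genes, 48p-HFSCs minus 10p-HFSCs, on the log2(FPKM + 1) scale (x axis). Points are limma estimates, bars their 95% intervals, dotted lines a difference of 1 in either direction, and colors the call. Trim30a and Trim30d stand apart at the upper end, with intervals from 2.00 to 4.88 and from 1.25 to 3.92. Trim2 is lowest at -1.72, close to Trim56 at -1.46 and Trim23 at -1.38. The interval of Trim2, from -2.25 to -1.18, is narrower than those of Trim56 and Trim23.

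Trim30a encodes a mouse TRIM protein that is induced during immune responses and restrains NF-kB signaling. It was at an FPKM of 0.137 and 0.153 in 10p-HFSCs, against 22.3 and 5.63 in replicates 1 and 2 of 48p-HFSCs. The groups were far apart, and the 48p-HFSC libraries differed from each other by 3.95-fold. The log2 difference on the log2(FPKM + 1) scale was 3.44 with a standard error of 0.58 and an adjusted p of 0.013 by limma. As plain FPKM ratios to the mean of 10p-HFSCs, replicate 1 was 153-fold and replicate 2 was 38.8-fold higher. By level, Trim30a moved from rank 36 to rank 14 among the 66 genes.

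Trim30d, its neighbour and close relative, had an FPKM of 0 in 10p-HFSCs and of 9.73 and 2.35 in replicates 1 and 2 of 48p-HFSCs. No fold can be given against a group listed at 0. The log2 difference was 2.58 on the log2(FPKM + 1) scale with a standard error of 0.54 and an adjusted p of 0.025 by limma. Trim30d was the one member listed at 0 in both libraries of a group and at 1 or more in both of the other. Without replicate 1 or without replicate 2 of 10p-HFSCs, the log2 difference stayed at 3.43 and 3.45 for Trim30a. For Trim30d it stayed at 2.58 and 2.58. Neither gene was called in these fits. A gene's own spread came there from the 48p-HFSC pair alone, which lay far apart for both genes. Leaving out replicate 1 or replicate 2 of 48p-HFSCs gave differences of 2.53 and 4.34 for Trim30a and of 1.74 and 3.42 for Trim30d. Both genes stayed called, but their own spread then came from the 10p-HFSC pair alone, at or near 0 FPKM. These fits therefore do not test the calls. Without the filter on low values, Trim30d was no longer called (adjusted p = 0.071).

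Of all windows of the length of a read in the longest transcript of Trim30a in GENCODE M21, 4.77% were found word for word in Trim30d, and 5.50% of the windows of Trim30d were found in Trim30a. Trim30b, which lies between Trim12c and Trim30a, shared no such window and stayed at or under 0.115 FPKM in every library. How the authors treated reads mapping to several places is not given in the sources used here.

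The chromosome 7 cluster extends over 289 kb in mm10 (chr7:104218793-104507849) and holds 8 members in the order Trim6, Trim34a, Trim12a, Trim34b, Trim12c, Trim30b, Trim30a and Trim30d. Their summed FPKM was 7.84 and 6.63 in 10p-HFSCs, and 60.2 and 18.1 in replicates 1 and 2 of 48p-HFSCs. In 7 of the 8 genes the groups did not overlap and 48p-HFSCs were higher, as in 31.7% of all genes tested, the exception being Trim12a, which was above 0 in replicate 1 of 48p-HFSCs alone, at 0.0892. Of the 7, Trim30b, Trim34a and Trim34b were too low to be tested. Of the 8 genes 4 were tested, and 2 of these were called higher, against 10.8% of all genes. These 2, Trim30a and Trim30d, passed the filter on low values only through 48p-HFSCs. The cluster was described with both calls known, and the share of 31.7% counts tested genes alone. These counts therefore do not test the cluster.

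Trim12c, a relative of the antiviral factor TRIM5 of primates, had an FPKM of 6.62 and 5.60 in 10p-HFSCs and of 20.4 and 8.40 in 48p-HFSCs. Its groups did not overlap, but the log2 difference of 1.0 (standard error 0.44) was not called (limma adjusted p = 0.15). Without replicate 1 or replicate 2 of 48p-HFSCs, its log2 difference was 0.41 and 1.60. Trim34a was at 0.0206 and 0.0287 in 10p-HFSCs, against 2.55 and 0.220 in 48p-HFSCs, and Trim34b was listed at 0 in 10p-HFSCs, against 2.48 and 0.236 in 48p-HFSCs. Both reached 1 in a single library and were not tested. These copies share sequence, with 22.3% of the windows of Trim34a and 32.1% of those of Trim34b found in the other, so that their reads may have been split. Trim6 was at 1.07 and 0.848 in 10p-HFSCs, against 2.54 and 1.24 in 48p-HFSCs and was not called (limma adjusted p = 0.25).

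**Figure D2:**
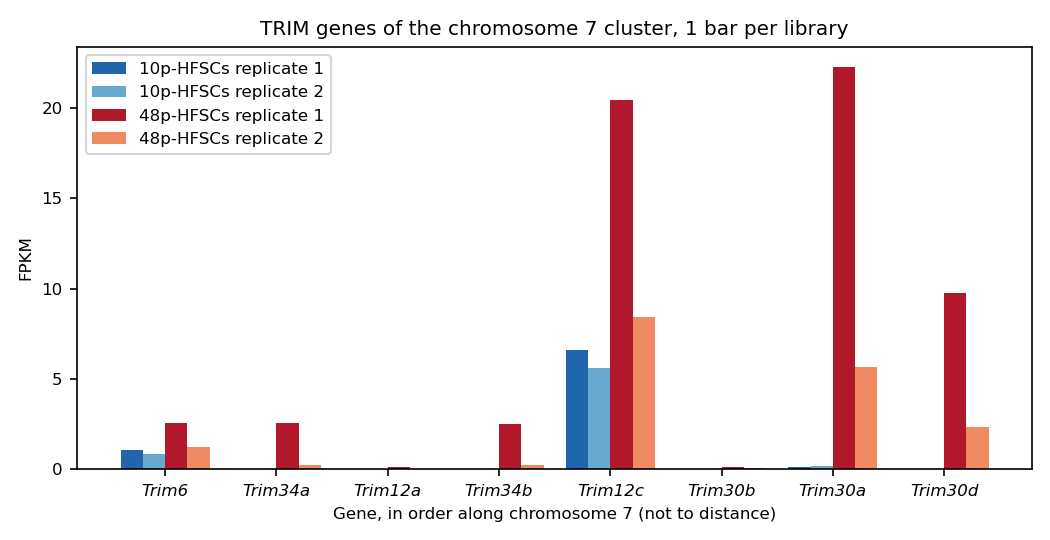
FPKM (y axis) of the 8 TRIM genes of the chromosome 7 cluster, in their order along the chromosome and not to distance (x axis), with 1 bar per library. Replicate 1 of 48p-HFSCs has the highest bar of each gene, from 0.0892 for Trim12a to 22.3 for Trim30a.

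Of 13 TRIM genes known to be induced by interferon, 12 were listed and 8 tested. Trim30a and Trim30d were called higher and none of the 8 was called lower, against 10.8% and 9.15% of all genes. The median log2 difference of the 8 was 0.37, beside -0.03 over all genes. Trim30a and Trim30d passed the filter on low values only through 48p-HFSCs, so the counts and the median follow in part from the filter. Trim21, the cytosolic antibody receptor, was at 3.94 and 2.41 in 10p-HFSCs, against 5.82 and 2.16 in 48p-HFSCs, so that its groups overlapped. Trim25, a ligase that modifies the RNA sensor RIG-I, was at 14.4 and 11.9 in 10p-HFSCs, against 29.3 and 11.5 in 48p-HFSCs, where replicate 1 alone lay above 10p-HFSCs. Their log2 differences were 0.18 (95% interval from -0.90 to 1.26) and 0.46 (from -0.64 to 1.57), and both changed sign under rescaling to equal summed FPKM. Trim14, an adaptor of the RIG-I pathway, and Trim26 were not called. Trim56 was at 9.14 and 4.16 in 10p-HFSCs, against 5.03 and 0.152 in 48p-HFSCs, the widest gap between replicates among the tested genes on the log2(FPKM + 1) scale. Trim38 was listed at 0 in all 4 libraries.

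Genes that work with these members were taken from lists. The lists were chosen with earlier results of these data known, so their counts are not independent support. Of 9 genes of the interferon receptor and its signaling, 5 were called higher (Ifnar2, Irf1, Irf7, Irf9 and Stat2) and none lower, against 10.8% and 9.15% of all genes, with a median log2 difference of 1.39. Irf9, a subunit of the factor that binds the interferon-stimulated response element, was at 2.03 and 2.49 in 10p-HFSCs, against 31.8 and 8.998 in 48p-HFSCs. Irf1 was at 32.9 and 28.96 in 10p-HFSCs, against 80.7 and 80.2 in 48p-HFSCs. Ifnar2, a receptor subunit, was listed at 0 in 10p-HFSCs, against 17.5 and 27.7 in 48p-HFSCs. It passed the filter on low values only through 48p-HFSCs, so the count of genes called higher follows in part from the filter. The part of interferon signaling, and that of the leukocyte marker Cd68, in the rise of Trim30a and Trim30d was not tested. Of 8 genes around RIG-I and Trim25, none was called higher, against 10.8% of all genes, and 1 lower, against 9.15%. The gene called lower was Mavs, the adaptor of RIG-I at mitochondria, from 17.9 and 16.1 to 7.26 and 3.32 (log2 difference -1.59 with a standard error of 0.38, adjusted p = 0.035 by limma). Ddx58, which encodes RIG-I, was at 7.16 and 4.96 in 10p-HFSCs, against 20.4 and 9.47 in 48p-HFSCs. Ifih1 was listed at 0 in 10p-HFSCs, against 5.44 and 1.01 in 48p-HFSCs. Both lay above in 48p-HFSCs without a call, Tbk1 and Traf3 lay below without a call, and the other groups overlapped.

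Trim2 was the one member called lower. It encodes a ligase of the NHL class that is best known from neurons. Its FPKM was 2.38 and 2.33 in 10p-HFSCs, and it was 0.0428 in replicate 1 and listed at 0 in replicate 2 of 48p-HFSCs. The 10p-HFSC libraries thus agreed closely and lay far above both 48p-HFSC libraries, at a low level for the family. The log2 difference was -1.72 on the log2(FPKM + 1) scale with a standard error of 0.22 and an adjusted p of 0.005 by limma. Without replicate 1 or replicate 2 of 10p-HFSCs it was -1.71 and -1.73, and the adjusted p from limma, 0.059 and 0.055, no longer passed. The fibroblast markers Vim and Col1a2 were lower in the same libraries, as given above, and their part in the fall of Trim2 was not tested.

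The other NHL genes were not called. Trim3 was at 7.92 and 8.66 in 10p-HFSCs, against 10.7 and 15.0 in 48p-HFSCs (log2 difference 0.56, 95% interval from -0.14 to 1.27). Trim32, a ligase mutated in a form of muscular dystrophy, was at 12.2 and 11.2 in 10p-HFSCs, against 10.8 and 6.20 in 48p-HFSCs (log2 difference -0.46, interval from -1.28 to 0.35). In Trim3 both 48p-HFSC libraries lay above, and in Trim32 below, the 10p-HFSC libraries. Trim71, known from embryos and pluripotent cells, was at 0.0137 in replicate 2 of 10p-HFSCs and was listed at 0 in the other libraries.

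Most of the abundant members were shared by both groups. The 5 highest means in 10p-HFSCs were those of Trim29, Trim28, Trim8, Trim59 and Trim44, those in 48p-HFSCs were Trim29, Trim28, Trim13, Trim44 and Trim59, and 8 of the 10 highest members in 10p-HFSCs were among the 10 highest in 48p-HFSCs. Trim33 moved from rank 8 to 18 and Trim13 from rank 11 to 3. A mean of at least 10 FPKM in both groups was found for 14 members. None of the 14 was called, and their log2 differences ranged from -1.12 for Trim8 to 0.96 for Trim13. Trim28 and Trim29 made up between 32.6% and 37.3% of the summed FPKM of all 66 genes in each library.

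Trim29, which lacks a RING finger and is characteristic of stratified epithelia, was at 105 and 91.1 in 10p-HFSCs, against 123 and 67.4 in 48p-HFSCs. The 48p-HFSC libraries lay on either side of the 10p-HFSC libraries. The log2 difference was -0.10, with a 95% interval from -1.0 to 0.79. Trim28, the corepressor recruited by KRAB zinc finger proteins, was at 90.6 and 80.9 in 10p-HFSCs, against 71.5 and 92.4 in 48p-HFSCs. Its groups overlapped, and its log2 difference of -0.07 had an interval from -0.76 to 0.61. In 10p-HFSCs the lowest value of Trim29 lay just above the highest of Trim28, while in 48p-HFSCs their values overlapped.

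**Figure D3:**
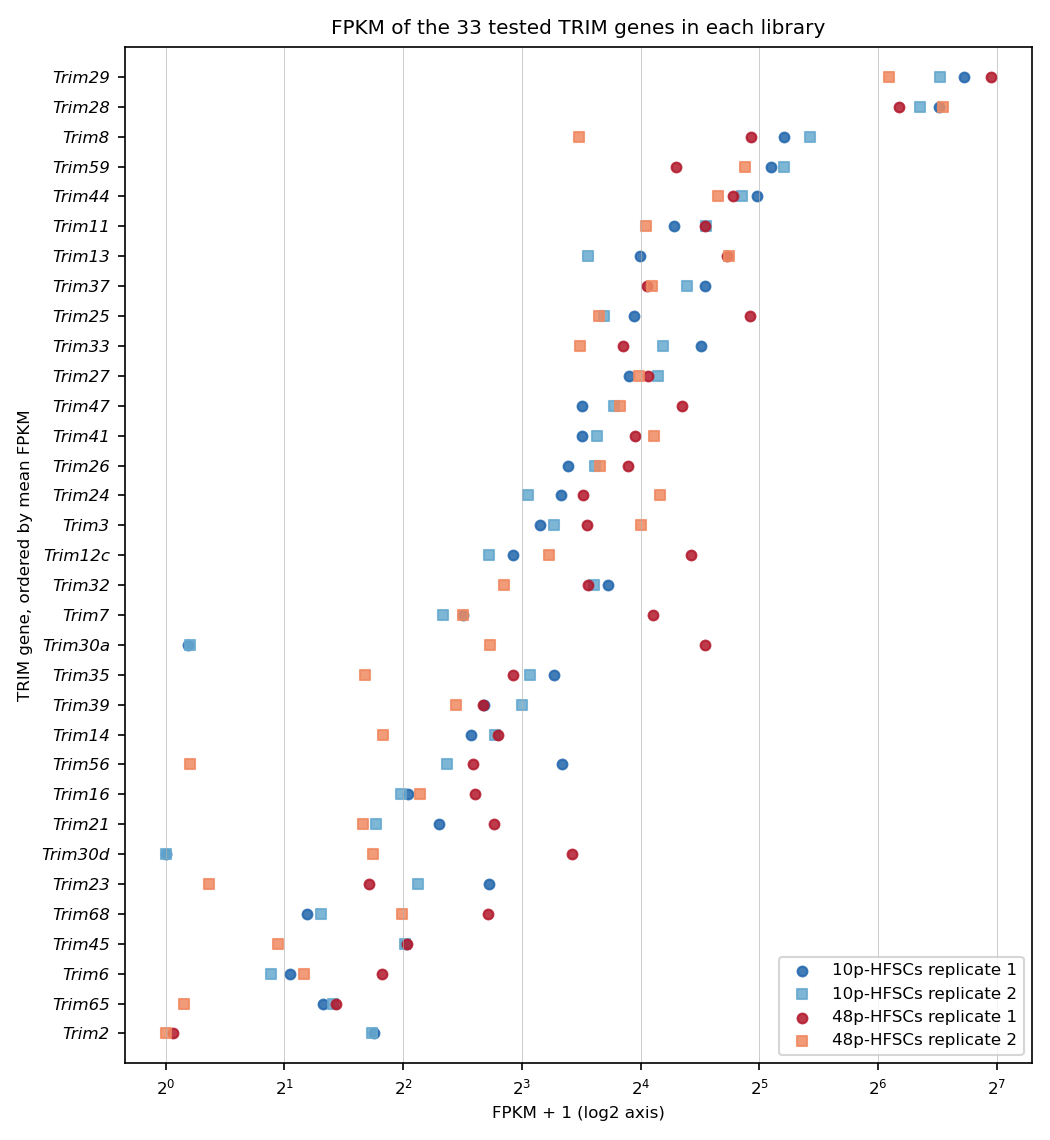
FPKM + 1 on a log2 axis (x axis) of the 33 tested TRIM genes, ordered by mean FPKM (y axis), with 1 point per library. Points of both groups lie close together in abundant genes such as Trim28, and far apart in Trim30a, Trim30d and Trim2. Replicate 2 of 48p-HFSCs has the lowest point in many genes, such as Trim8 at an FPKM of 10.2.

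The other genes of the PHD-bromodomain class were not called either. Trim24 was at 9.08 and 7.27 in 10p-HFSCs, against 10.4 and 16.9 in 48p-HFSCs (log2 difference 0.65, 95% interval from -0.15 to 1.45). Trim33, which binds SMAD proteins in TGF-b signaling, was at 21.7 and 17.3 in 10p-HFSCs, against 13.5 and 10.2 in 48p-HFSCs (log2 difference -0.68, interval from -1.37 to 0.01, limma adjusted p = 0.14). The groups did not overlap in either gene, and they were apart in opposite directions. Trim66 was at most 0.551 and was not tested. Of 8 genes around Trim28, Chd3, a chromatin remodeler, was called lower, from 33.9 and 26.6 to 9.19 and 11.0 (log2 difference -1.49 with a standard error of 0.27, adjusted p = 0.016 by limma), and none was called higher. Of all genes, 9.15% were called lower and 10.8% higher. Atf7ip was at 11.7 and 6.63 in 10p-HFSCs, against 19.3 and 22.2 in 48p-HFSCs. Atf7ip and Zfp809 lay above in 48p-HFSCs, and Cbx1 lay below, without a call. The methyltransferase gene Setdb1 was not called, at 17.02 and 13.7 in 10p-HFSCs, against 15.8 and 10.8 in 48p-HFSCs. None of Smad2, Smad3 and Smad4, the 3 genes around Trim33, was called.

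Trim13, which encodes a ligase anchored in the endoplasmic reticulum, came close to a call. It was at 15.0 and 10.8 in 10p-HFSCs, against 25.6 and 25.8 in 48p-HFSCs, so that the later libraries agreed closely and both lay above the earlier ones. Its log2 difference of 0.96 (standard error 0.27) stayed below 1 and its adjusted p of 0.057 from limma above 0.05. Under rescaling to equal summed FPKM the difference of Trim13 was 0.41 (limma adjusted p = 0.67), so its closeness to a call depends on the scaling. Trim68, at 1.28 and 1.48 in 10p-HFSCs, against 5.56 and 2.97 in 48p-HFSCs, had a log2 difference of 1.10 with an adjusted p of 0.064 from limma. Trim8, a regulator of cytokine signaling, was at 36.1 and 42.2 in 10p-HFSCs, against 29.5 and 10.2 in 48p-HFSCs, and its log2 difference was -1.12 (standard error 0.49, adjusted p = 0.16 by limma). Without replicate 1 of 48p-HFSCs the log2 difference of Trim8 was -1.84, and without replicate 2 it was -0.39. Trim59 was at 33.3 and 36.0 in 10p-HFSCs, against 18.6 and 28.4 in 48p-HFSCs, and Trim44 at 30.7 and 27.9 and at 26.5 and 24.1. In Trim8, Trim59 and Trim44 both 48p-HFSC libraries lay below the 10p-HFSC libraries without a call.

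Trim27, a ligase first found as a partner in a fusion with the Ret receptor, had overlapping groups, at 13.97 and 16.7 in 10p-HFSCs, against 15.7 and 14.9 in 48p-HFSCs, with a 95% interval of the log2 difference from -0.63 to 0.62. Trim16, known from keratinocyte differentiation, was at 3.12 and 2.96 in 10p-HFSCs, against 5.09 and 3.40 in 48p-HFSCs (log2 difference 0.36, interval from -0.35 to 1.07). For both genes the interval left out a decrease of 1 on this scale, before any rescaling of the libraries. By class, 18 of the 37 PRY-SPRY genes listed were tested, with 2 called higher and none lower, against 10.8% and 9.15% of all genes. These 2, Trim30a and Trim30d, passed the filter on low values only through 48p-HFSCs. Of 13 genes with another or no C-terminal domain 9 were tested and none was called, against 19.9% of all genes in either direction. Of the COS-box class, whose members bind microtubules and include the muscle ligases Trim54, Trim55 and Trim63, none of 8 was tested, and none exceeded 0.551 FPKM in any library.

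Low members were also grouped by position. On chromosome 17, 6 members lie by the major histocompatibility complex, and Trim26 and Trim39 of these were tested, while the other 4 (Trim10, Trim15, Trim31 and Trim40) were at most 0.398. The copies Trim43a, Trim43b and Trim43c on chromosome 9 were at most 0.383. The TRIM proteins Mid1, Mid2 and Pml, which carry other symbols, were tested and not called, and Mefv was at most 0.024.

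Of the 33 tested TRIM genes, 26 were lower in replicate 2 than in replicate 1 of 48p-HFSCs, with a median log2 difference of -0.66 between these libraries, beside 0.01 over all 11018 genes. On the log2(FPKM + 1) scale, the 48p-HFSC libraries differed by at least 1 in 12 of the 33, each lower in replicate 2, beside 1871 of all 11018 genes. On the same scale none of the 33 differed by as much between the 10p-HFSC libraries, and the median was -0.06, although by plain FPKM Trim56 differed 2.2-fold there. The members furthest apart in 48p-HFSCs on this scale were Trim56, Trim30a, Trim30d and Trim7, a ligase that was at 16.2 and 4.68, against 4.66 and 4.05 in 10p-HFSCs. By plain FPKM ratio the order was another, with Trim56 33-fold, Trim65 15.4-fold and Trim23 8.04-fold higher in replicate 1. Over the 33 genes, the gap between the 48p-HFSC libraries had a Pearson's r of -0.01 and a Spearman's rho of -0.03 with log2 exon length. Over the 10612 genes with a length, these were -0.30 and -0.31. These are correlations across genes of the same libraries, which are not independent.

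**Figure D4:**
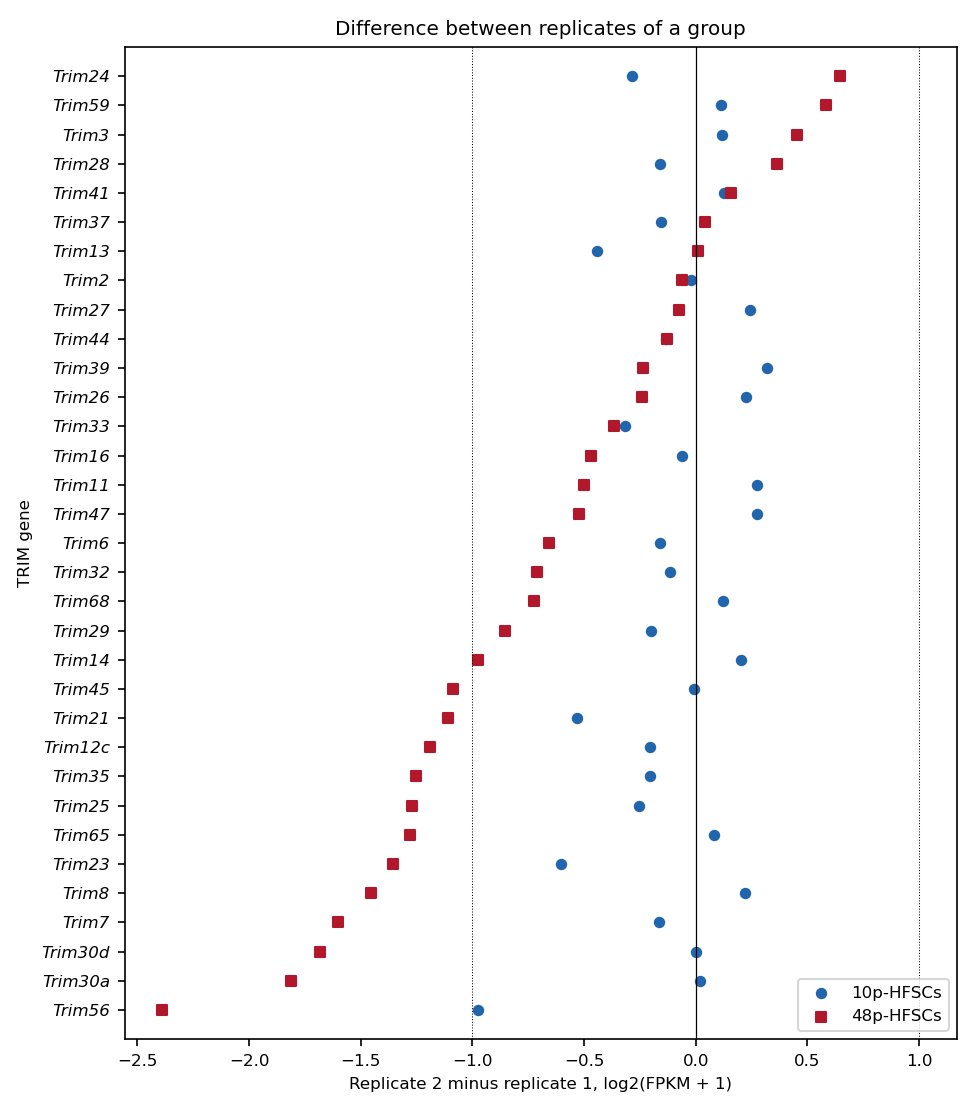
Difference between the libraries of a group, replicate 2 minus replicate 1 on the log2(FPKM + 1) scale (x axis), for the 33 tested TRIM genes (y axis), ordered by the difference in 48p-HFSCs. Circles are 10p-HFSCs, squares 48p-HFSCs and dotted lines a difference of 1. The squares run from -2.39 for Trim56 to 0.65 for Trim24, and 26 of them lie below 0, while the circles stay between the dotted lines.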

How the data were processed

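Poly(A) RNA libraries (TruSeq stranded mRNA kit, single-end reads) were mapped by the authors to mm10 with TopHat 2.1.1, and the deposited FPKM values, 1 per gene symbol and library, came from Cufflinks or Cuffdiff 2.2.1. The submitters' processing notes give Bowtie2 2.2.8 and SAMtools 0.1.18, while other versions stand in the paper. The annotation is not given in the sources used here. FPKM values carry no read totals, so depth is known only relative to other libraries, from the most common ratio of values under 0.3, and no counting interval is given.

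Libraries were grouped by labelled passage (10 or 48). All 11018 genes that reached an FPKM of 1 in 2 or more libraries were fitted on log2(FPKM + 1) with limma 3.58.1 in R 4.3.3 (variance trend, Benjamini-Hochberg adjustment). This scale understates changes of low genes. A count test does not apply to FPKM. With 2 libraries against 2, limma rests on variance shared across genes. The fit was tested on simulated data. Members and lists were chosen with earlier results of these data known. Named are called members, the 5 highest per group, members at 0 in both libraries of 1 group and at 1 or more in both of the other, and a preset list of 18. Trim68, Trim56, Trim7, Trim6, Trim34b, Trim30b, Trim14, Trim26, Trim39, the other members named with low values, and the pathway and marker genes picked from the lists were named after their values were seen. Positions and transcripts came from GENCODE M21 and promoters from RefSeq. Alternatives were another pseudocount, other filters, rescaling, a constant prior, a replicate block and leaving out each library.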

Additional observations from a re-analysis of the deposited data

How the results depend on the processing

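Trim30a, Trim30d and Trim2 stayed the called genes with a pseudocount of 0.1, a filter on the mean FPKM, rescaling to TPM, median-of-ratios scaling and a constant variance prior. Without the filter on low values 1 gene was called higher, Trim30a. Adding a replicate block to the fit gave 4 genes called higher (Trim12c and Trim68 besides) and 4 lower (Trim2, Trim23, Trim56 and Trim8). Calls rose over all genes too, to 1613 higher and 1497 lower with the block, from 1189 and 1008 without it. The labels give the number alone, and deviations of same-numbered libraries had a correlation of 0.408 across 11018 genes, so the pairing is not established. With each library left out in turn, between 0 and 5 genes were called higher and between 0 and 7 lower. Leaving out a 10p-HFSC library gave 0 in both directions, where a single 10p-HFSC library was assumed to vary like the others, although 35 or 36 of all genes were still called higher and 140 or 146 lower. An unadjusted p-value under 0.05 was found by limma for 1772 and 1995 genes in these fits.

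For the 18 named genes with a fit and 11 alternatives, 175 of 198 values kept their direction and their side of the threshold. Those that changed sign were not called. Under median-of-ratios scaling the log2 difference was 0.0021 for Trim27. Under rescaling to TPM it was -0.07 for Trim16, -0.23 for Trim21 and -0.07 for Trim25. Without a change of sign, rescaling to TPM also moved it to -0.55 for Trim27, -0.65 for Trim28 and -0.68 for Trim29. With each library left out in turn it ranged from -0.38 to 0.73 for Trim21, from -0.17 to 1.1 for Trim25, from -0.12 to 0.12 for Trim27, from -0.26 to 0.11 for Trim28, and from -0.53 to 0.33 for Trim29. Of the 4 libraries, replicate 2 of 48p-HFSCs had the lowest relative depth.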
